A study of Homo sapiens with 26 samples.

Results

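The 10 genes described here are feedback genes of the ERK pathway: the Sprouty genes SPRY1, SPRY2 and SPRY4, the Sprouty-related genes SPRED1 and SPRED2, the MAP kinase phosphatases DUSP4, DUSP5 and DUSP6, and the transcription factors ETV4 and ETV5. They were chosen by symbol as genes that ERK signalling is known to induce, and the set was picked from measured values: SPRY4, DUSP4 and DUSP6 were low in cardiomyocytes cultured with macrophages. Their values in that cardiomyocyte contrast are therefore a description with no test. All 10 were listed in each deposited table, out of 21991 genes for cardiomyocytes, 19206 for Biowire macrophages and 18771 for digested macrophages.

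The 26 libraries, in 8 groups, hold RNA of sorted cells that were derived from human embryonic stem cells. Biowires are engineered strips of cardiac tissue. Macrophages (MF) of the wild-type hES2 line were sorted on day 14 from Biowires of cardiomyocytes, FB cells and macrophages (CM+FB+MF), of FB cells and macrophages (FB+MF), or of macrophages alone (MF), with n = 3 libraries each. The labels call a further 9 macrophage libraries, n = 3 for each of the same combinations, digested controls, and give them no day of culture. Cardiomyocytes (CM) of the wild-type ESI17 line were sorted on day 3 from CM+FB+MF and CM+FB Biowires, n = 4 each. FB is taken to mean fibroblasts, though no label says so, and each of the cell types comes from 1 line. All cells were digested for 40 minutes in a mix with 1 uM flavopiridol, an inhibitor of transcription, and sorted by CD14 and CD45. Whether replicates came from separate cultures is not stated, and p-values then reflect the spread between the libraries alone, which may be technical.

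Growth factors bind receptor tyrosine kinases, which switch on RAS and then the kinases RAF, MEK and ERK. Active ERK induces transcription of its own brakes, and the messenger RNAs of many of them are short-lived, so their levels are widely used as a readout of recent ERK activity. In the heart this pathway acts in cell growth and in responses to fibroblast growth factors, and in macrophages it carries signals from the CSF1 receptor. ERK activity itself was not measured here. How far levels of short-lived messenger RNAs changed over the 40 minutes of digestion with transcription inhibited was not tested.

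Depth was 12604684 to 30936910 counts per library in cardiomyocytes and 6983800 to 13665322 in macrophages, and the lowest cardiomyocyte total belongs to CM+FB+MF replicate 4. All levels are given as CPM, the count at a library total of 1000000, so they compare groups for 1 gene and not levels between genes. Of 20 macrophage markers, 20 averaged at least 1 CPM in every macrophage group, and of 20 cardiomyocyte markers 20 did so in both cardiomyocyte groups. The cardiomyocyte libraries also held fibroblast markers, at summed levels of 4233 to 7684 CPM in CM+FB+MF and 3839 to 6544 CPM in CM+FB (two-sided exact permutation test p = 0.2). In bulk samples, fewer cells of a type and less RNA per cell cannot be told apart.

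The sequences before the starts of SPRY4 and DUSP6 are shown because both genes had among the lowest log2 differences of CM+FB+MF against CM+FB cardiomyocytes. RefSeq promoters (GRCh38.p14, matched by symbol) were at hand for 6 of the 10 genes, with 10 starts in all. The 250 bases before the start, 5′ to 3′ on the gene's minus strand, are at chr5:142324248-142324497 for SPRY4 and chr12:89352502-89352751 for DUSP6. Capitals mark GGAA or its complement TTCC, the short core that ETS factors such as ETV4 and ETV5 are known to bind.
SPRY4: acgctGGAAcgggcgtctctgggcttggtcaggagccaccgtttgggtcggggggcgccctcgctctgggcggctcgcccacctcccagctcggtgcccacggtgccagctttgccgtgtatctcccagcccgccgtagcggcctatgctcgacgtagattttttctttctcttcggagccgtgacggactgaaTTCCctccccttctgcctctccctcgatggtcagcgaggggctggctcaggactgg
DUSP6: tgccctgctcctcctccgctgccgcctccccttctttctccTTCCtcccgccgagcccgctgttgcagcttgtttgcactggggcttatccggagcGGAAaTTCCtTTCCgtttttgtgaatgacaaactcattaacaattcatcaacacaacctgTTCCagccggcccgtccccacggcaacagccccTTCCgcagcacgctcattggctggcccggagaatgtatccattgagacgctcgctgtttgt
The core matched at 2 places before SPRY4 and at 6 before DUSP6, and 92.7% of the 35116 RefSeq promoters hold at least 1 match in the same window. The longer ETS core CCGGAA, which contains GGAA, the octamers TGAATGAA and TGAATGGA bound by the repressor CIC, the AP-1 site TGANTCA and the CRE site TGACGTCA, searched on both strands, had 0 matches in both windows. They occur in 14.5%, 1.4%, 0.832%, 6.57% and 1.65% of the promoters. A match is a description of the letters and not a binding site.

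In cardiomyocytes, 9 of the 10 genes were lower in CM+FB+MF than in CM+FB Biowires with no overlap between the libraries. The same pattern was found in 7.61% of the 16046 genes of the fit, and 5.88% of all genes were called lower and 6.79% higher at adjusted p under 0.05 (edgeR's quasi-likelihood test with Benjamini-Hochberg adjustment). Since this contrast chose the genes, nothing is read from that count. The median log2 difference of the 10 genes was -1.31 and that of all genes 0.02.

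SPRY4, which blocks signalling between receptor and RAF, had 17.2, 19.2, 24.0 and 17.0 CPM in CM+FB+MF cardiomyocytes, against 129, 137, 149 and 166 CPM in CM+FB cardiomyocytes. The highest library with macrophages lay far below the lowest without them, and the log2 difference was -2.92 ± 0.11 (SE). SPRY2, a close relative of SPRY4, had 29.9, 18.5, 21.8 and 22.0 CPM in CM+FB+MF, against 50.6, 58.7, 54.2 and 51.2 CPM in CM+FB cardiomyocytes. The groups did not overlap, and the log2 difference was -1.23 ± 0.12. SPRY1 had 3.39 ± 0.654 CPM in CM+FB+MF and 2.91 ± 0.564 CPM in CM+FB (SD, n = 4 each), with overlapping libraries and a log2 difference of 0.21 ± 0.22. It was the only gene of the 10 with no lower level beside macrophages.

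SPRED1 and SPRED2 encode membrane proteins that bring neurofibromin to RAS and thereby keep RAS off. SPRED2 averaged 16.3 ± 2.58 CPM in CM+FB+MF and 31.5 ± 2.42 CPM in CM+FB cardiomyocytes (SD, n = 4 each), a log2 difference of -0.96 ± 0.11. SPRED1 averaged 25.8 ± 3.56 CPM in CM+FB+MF and 35.1 ± 2.35 CPM in CM+FB, a difference of -0.46 ± 0.097. Both genes thus differed less between the groups than SPRY4 or SPRY2 did.

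DUSP4 and DUSP5 dephosphorylate ERK in the nucleus and DUSP6 does so in the cytoplasm. DUSP4 had 0.579, 0.789, 1.07 and 0.317 CPM in CM+FB+MF cardiomyocytes, against 7.17, 11.4, 10.8 and 11.1 CPM in CM+FB cardiomyocytes. All libraries with macrophages were near 1 CPM or lower, and the log2 difference of -3.80 ± 0.26 was the lowest of all 16046 genes. DUSP6 had 12.6, 9.87, 10.6 and 10.4 CPM in CM+FB+MF, against 38.2, 41.4, 41.6 and 48.6 CPM in CM+FB cardiomyocytes. The libraries of each group lay close together and far from the other group (log2 -1.98 ± 0.10). DUSP5 showed a smaller difference, with 38.2 ± 4.01 CPM in CM+FB+MF and 57.3 ± 3.57 CPM in CM+FB (log2 -0.60 ± 0.076).

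ETV4 and ETV5 are ETS transcription factors of the PEA3 family that act downstream of fibroblast growth factor signalling. ETV5 had 24.9, 22.5, 28.9 and 25.7 CPM in CM+FB+MF cardiomyocytes, against 87.3, 97.7, 91.1 and 103 CPM in CM+FB cardiomyocytes. The groups did not overlap, with a log2 difference of -1.91 ± 0.082. ETV4 was at a low level in both groups, 1.66 ± 0.508 CPM in CM+FB+MF and 4.37 ± 0.499 CPM in CM+FB (log2 -1.38 ± 0.23). The libraries of ETV4 did not overlap either.

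**Figure D1:**
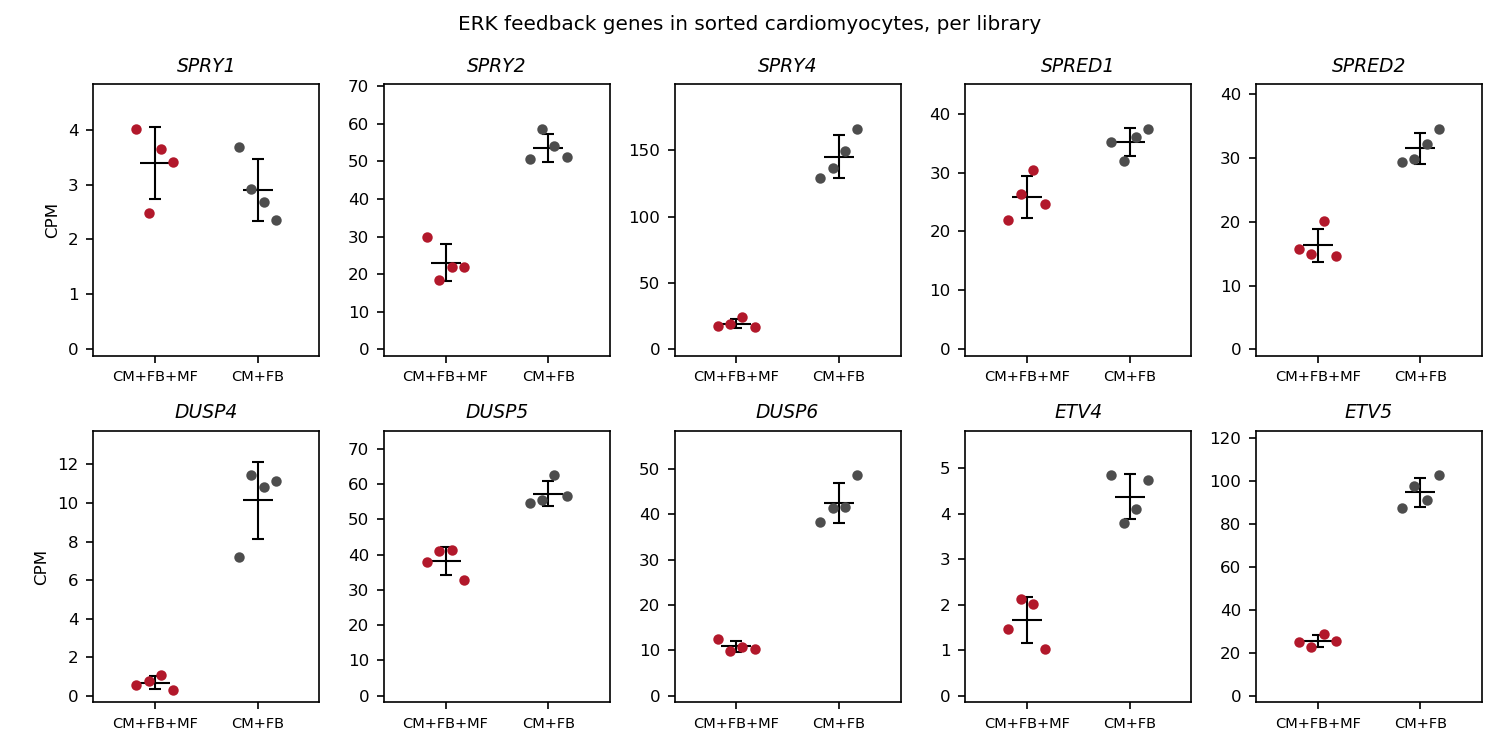
Level of each of the 10 genes (CPM, linear axis from 0) in sorted cardiomyocytes from CM+FB+MF and CM+FB Biowires; points are libraries, horizontal bars group means and error bars SD (n = 4 each). For 9 genes all CM+FB+MF points lie below all CM+FB points, and the points of SPRY1 overlap.

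Macrophage RNA in the cardiomyocyte libraries moved with the group. Summed macrophage markers were 36.2 to 91.1 CPM in CM+FB+MF and 7.64 to 10.3 CPM in CM+FB cardiomyocytes (two-sided exact permutation test p = 0.0286, the smallest that 4 against 4 libraries allow), and 13 of 20 markers averaged at least 1 CPM in CM+FB+MF against 3 of 20 in CM+FB. The sums in CM+FB+MF libraries were 0.224% to 0.564% of the mean sum in digested MF macrophages. At those shares, RNA of digested MF macrophages would carry 0.465 to 1.17 CPM of DUSP6 and 0.135 to 0.339 CPM of ETV5. Macrophage levels on day 3 are not known. Digested MF macrophages averaged 207 CPM of DUSP6 and 60.1 CPM of ETV5, and Biowire CM+FB+MF macrophages, on day 14, 41.3 and 213 CPM. No group holds sorted fibroblasts, so no such estimate was made for fibroblast RNA. The part of macrophage or fibroblast RNA in the cardiomyocyte values was not tested. Cardiomyocyte markers summed to 139541 ± 2687 CPM in CM+FB+MF and 148533 ± 7776 CPM in CM+FB (SD, n = 4 each, exact p = 0.0571). Smooth muscle markers summed to 1017 to 1127 CPM and 1240 to 1337 CPM in these groups, and endothelial markers to 10.1 to 21.6 CPM and 15.7 to 39.8 CPM.

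In Biowire macrophages, several of the genes were higher in the presence of cardiomyocytes. The rule that picked the genes names cardiomyocyte values only, but the genes were chosen with earlier results of these data known. Against MF Biowires, 5 of the 10 genes rose in CM+FB+MF Biowires (ETV5, SPRED1, DUSP6, SPRY2 and SPRED2), 0 fell, 3 did not pass the test and 2 (SPRY4 and ETV4) were too low to be tested. Over all 13952 genes tested, 17.8% were called higher and 19.8% lower. The median log2 difference of the 8 tested genes was 1.19 and that of all genes 0.00. Adjusted p-values in this and the following paragraphs are from edgeR's quasi-likelihood test with Benjamini-Hochberg adjustment over all genes tested.

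ETV5 had 195, 220 and 225 CPM in CM+FB+MF macrophages, 63.0, 82.9 and 76.2 CPM in FB+MF macrophages, and 32.5, 45.8 and 33.2 CPM in MF macrophages. The groups were ordered without overlap, and ETV5 was 5.69-fold higher in CM+FB+MF than in MF (log2 2.51 ± 0.15, adjusted p = 2.76e-08). SPRED1 had 235, 260 and 287 CPM in CM+FB+MF, 86.8, 121 and 118 CPM in FB+MF, and 64.0, 65.3 and 56.4 CPM in MF macrophages. It followed the same order, with a 4.18-fold higher level in CM+FB+MF than in MF (log2 2.06 ± 0.14, adjusted p = 7.17e-08).

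DUSP6 had 43.0, 40.8 and 40.1 CPM in CM+FB+MF, 9.25, 13.5 and 10.5 CPM in FB+MF, and 10.8, 11.6 and 14.0 CPM in MF macrophages. Only the group with cardiomyocytes stood apart, at 3.41-fold the MF level (log2 1.77 ± 0.18, adjusted p = 3.54e-06), while FB+MF and MF libraries overlapped. SPRY2 had 14.1, 18.8 and 22.5 CPM in CM+FB+MF, 5.95, 3.28 and 3.25 CPM in FB+MF, and 4.60, 6.29 and 7.28 CPM in MF macrophages. Among Biowire macrophages it too was high in the CM+FB+MF group alone (log2 against MF 1.60 ± 0.30, adjusted p = 0.000975). That group averaged 18.5 CPM of SPRY2 and the digested groups 19.3 to 22.4 CPM, levels that were not tested across tables. SPRED2 had 33.8, 34.6 and 34.8 CPM in CM+FB+MF, 29.1, 27.0 and 31.3 CPM in FB+MF, and 16.8, 20.9 and 21.9 CPM in MF macrophages. Its groups were ordered like those of ETV5 but lay closer together, with a log2 difference between CM+FB+MF and MF of 0.79 ± 0.14 (adjusted p = 0.000604).

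The FB+MF macrophages share their MF libraries with the comparison above. Against MF, 3 of the 10 genes rose and 0 fell, where 4.03% of 13952 genes were called higher and 2.14% lower. The log2 difference was 1.02 ± 0.14 for ETV5 (adjusted p = 0.000635), 0.84 ± 0.13 for SPRED1 (adjusted p = 0.00155) and 0.59 ± 0.14 for SPRED2 (adjusted p = 0.0221). The SPRED2 call was lost when any of 5 libraries was left out, FB+MF replicate 1 or 3 or any MF replicate, with adjusted p up to 0.0843. DUSP6 had a log2 difference of -0.10 ± 0.18 (adjusted p = 0.857) and SPRY2 one of -0.50 ± 0.31 (adjusted p = 0.463).

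With cardiomyocytes added to fibroblasts and macrophages, that is CM+FB+MF against FB+MF, 4 of the 10 genes rose and 1 fell, where 16.4% of genes were called higher and 19.1% lower. The rises in log2 were 2.09 ± 0.31 for SPRY2 (adjusted p = 0.000179), 1.86 ± 0.18 for DUSP6 (adjusted p = 3.40e-06), 1.49 ± 0.14 for ETV5 (adjusted p = 3.78e-06) and 1.22 ± 0.13 for SPRED1 (adjusted p = 1.18e-05). SPRED2 differed by 0.20 ± 0.14 (adjusted p = 0.284). The comparison shares its CM+FB+MF and FB+MF libraries with those above.

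SPRY1 had another order. Its levels were 3.23, 5.22 and 1.15 CPM in CM+FB+MF, 16.4, 17.3 and 17.8 CPM in FB+MF, and 3.75, 9.07 and 7.19 CPM in MF macrophages. The FB+MF libraries were the highest without overlap, and SPRY1 fell in CM+FB+MF relative to FB+MF by 2.44 ± 0.42 on the log2 scale (adjusted p = 0.000602). Against MF, its log2 difference was 1.39 ± 0.39 in FB+MF (adjusted p = 0.0535) and -1.05 ± 0.43 in CM+FB+MF (adjusted p = 0.0684). Neither passed the threshold. The CM+FB+MF difference passed with DESeq2, with no filter on low counts, and without CM+FB+MF replicate 2 or MF replicate 1 (adjusted p = 0.0203 and 0.0223), and the FB+MF difference passed with both of those settings, with only the compared groups in the fit, with the replicate block, and without CM+FB+MF replicate 2 or 3 (adjusted p = 0.036 and 0.0183).

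The other phosphatases, DUSP4 and DUSP5, varied widely between Biowire macrophage libraries of 1 group. DUSP4 had 2.42, 6.72 and 3.44 CPM in CM+FB+MF, 15.5, 5.53 and 8.30 CPM in FB+MF, and 2.06, 3.29 and 6.41 CPM in MF macrophages. Its groups overlapped, and the log2 differences of 0.10 ± 0.51 for CM+FB+MF against MF (adjusted p = 0.896), 1.37 ± 0.49 for FB+MF against MF (adjusted p = 0.143) and -1.26 ± 0.50 for CM+FB+MF against FB+MF (adjusted p = 0.0642) did not pass. The last of these passed with DESeq2, with no filter on low counts, with only the compared groups in the fit (adjusted p = 0.0457, 0.0273 and 0.0456), and without CM+FB+MF replicate 2, FB+MF replicate 2 or MF replicate 1 (adjusted p = 0.0323, 0.0386 and 0.0402). DUSP5 had 0.539, 1.74 and 1.00 CPM in CM+FB+MF, 1.93, 1.50 and 0.0902 CPM in FB+MF, and 1.33, 8.93 and 1.26 CPM in MF macrophages, where MF replicate 2 set the group mean. Its log2 difference of -1.82 ± 0.94 for CM+FB+MF against MF did not pass (adjusted p = 0.148), and without MF replicate 2 it was -0.25.

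SPRY4 and ETV4 did not reach the minimum for testing in Biowire macrophages. SPRY4 had 5, 12 and 20 counts in CM+FB+MF libraries (0.674, 1.49 and 2.86 CPM), 8, 0 and 0 counts in FB+MF libraries, and 0 counts in all 3 MF libraries. Its level was 17.7 times a floor of 3 counts over the MF group in CM+FB+MF and 2.51 times that floor in FB+MF. These ratios leave out counting error and the spread between libraries, so they are no lower bounds. All FB+MF counts came from replicate 1, and the other FB+MF libraries were at 0 like those of MF. ETV4 stayed at or below 0.902 CPM in each of the 18 macrophage libraries.

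Cardiomyocyte RNA was present in the CM+FB+MF macrophage libraries. The summed cardiomyocyte markers were 1248 to 2960 CPM in CM+FB+MF, 24.3 to 68.9 CPM in FB+MF and 48.8 to 78.8 CPM in MF macrophages (exact permutation p = 0.1 for CM+FB+MF against each of the others, the smallest that 3 against 3 libraries allow), with 19 of 20 markers at 1 CPM or more in CM+FB+MF and 2 of 20 in each of the others. Of the 20 markers, 1 was at 0 or not listed in CM+FB+MF, 11 in FB+MF and 10 in MF macrophages. TNNT2 was at 114 ± 33.4 CPM in CM+FB+MF, 0.22 ± 0.30 CPM in FB+MF and 0 CPM in MF macrophages. The sums in CM+FB+MF libraries were 0.894% to 2.12% of the mean sum in CM+FB+MF cardiomyocytes. Those cardiomyocytes were sorted on day 3 and these macrophages on day 14, and cardiomyocyte levels on day 14 are not known. At those shares and day 3 levels, such cardiomyocytes would carry 0.228 to 0.541 CPM of ETV5, where 195 to 225 CPM were measured. For SPRY4 they would carry 0.173 to 0.411 CPM, and cardiomyocytes at the CM+FB level 1.30 to 3.08 CPM, where 0.674 to 2.86 CPM were measured. What part of the ETV5 and SPRY4 counts came from cardiomyocytes or fibroblasts was not tested.

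Fibroblast markers summed to 403 to 486 CPM in CM+FB+MF, 670 to 765 CPM in FB+MF and 527 to 648 CPM in MF macrophages. Of 16 such markers, 11, 12 and 8 averaged at least 1 CPM in these groups. The sums depended on 1 marker: without the most abundant one, CM+FB+MF against MF turned from log2 -0.41 to 0.74. Macrophage markers summed to 18309 to 19666 CPM, 16660 to 18152 CPM and 12039 to 13775 CPM in the same groups. Endothelial markers were at 348 to 382 CPM, 418 to 488 CPM and 509 to 588 CPM, with 3 of 8 markers averaging at least 1 CPM in each group. Smooth muscle markers were at 24.7 to 31.1 CPM, 20.2 to 28.0 CPM and 22.9 to 32.9 CPM. The part of these differences in the results was not tested.

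**Figure D2:**
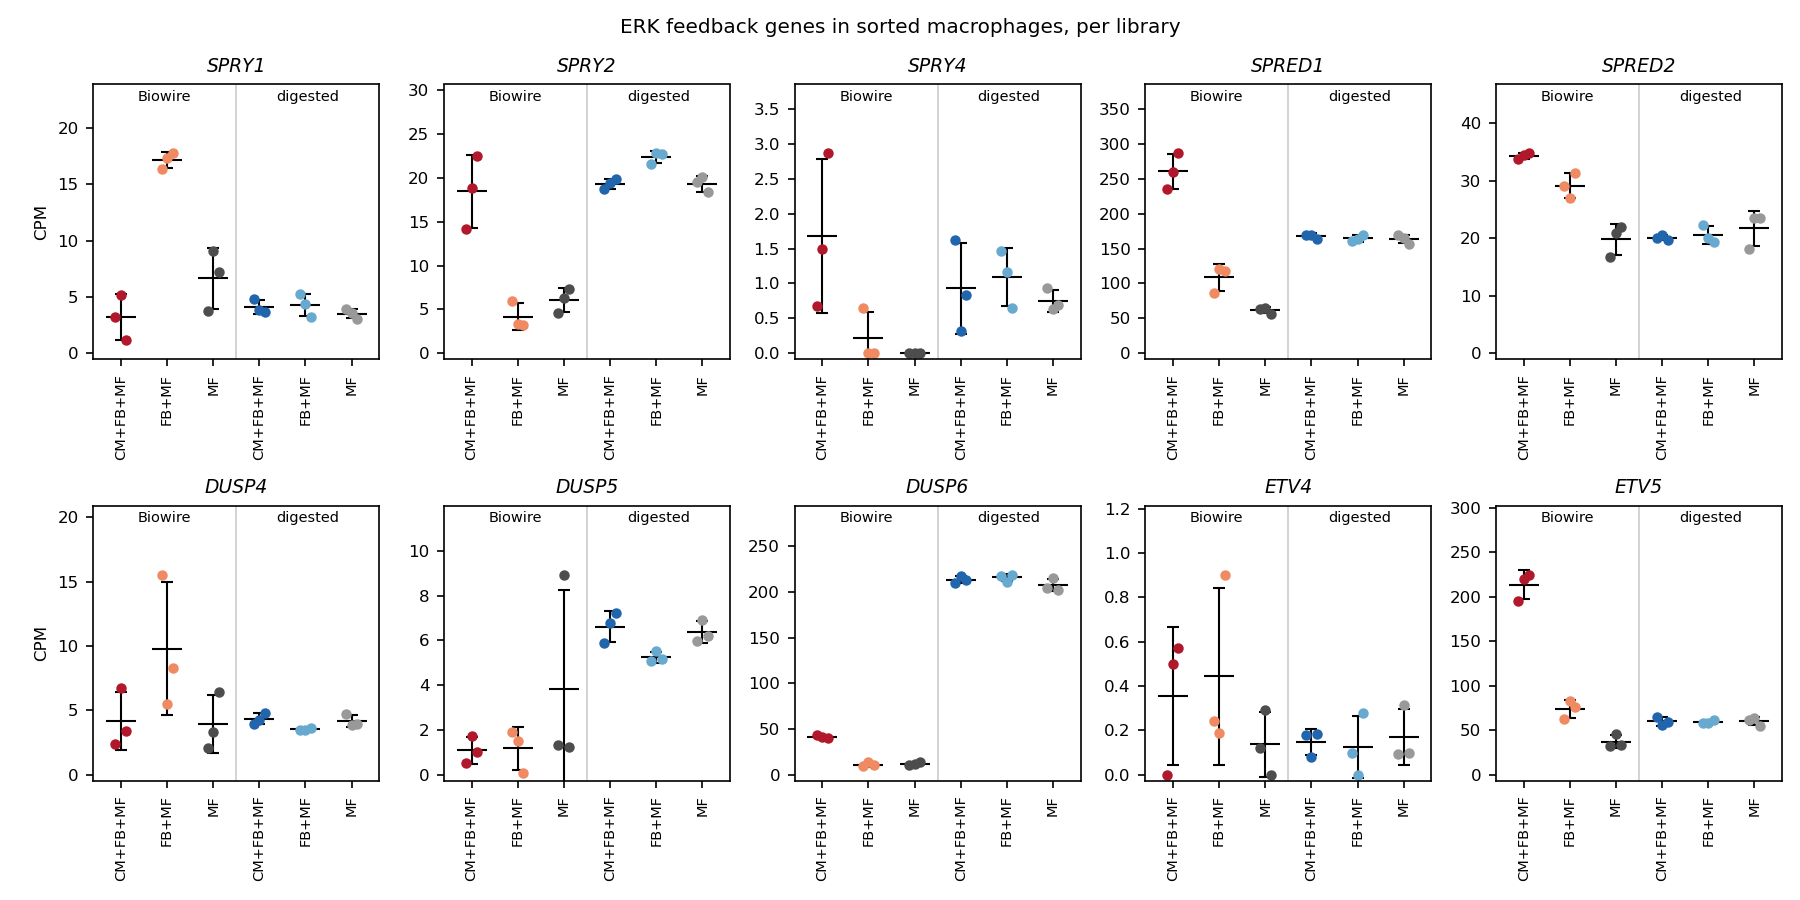
Level of each of the 10 genes (CPM, linear axes that differ between genes) in macrophages from Biowires on day 14 and in digested control macrophages, each in the order CM+FB+MF, FB+MF and MF; points are libraries, horizontal bars group means and error bars SD (n = 3 each). ETV5, SPRED1, DUSP6 and SPRY2 are highest among Biowire groups in CM+FB+MF, and DUSP6 is at 202 to 219 CPM in all digested libraries.

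In digested macrophages none of the genes was called in any of the 3 comparisons. Of 9 genes tested (ETV4 was too low), 0 passed in CM+FB+MF against MF, in FB+MF against MF and in CM+FB+MF against FB+MF, where 2.69%, 1.6% and 0.239% of all 12960 genes were called. At an unadjusted p under 0.05, edgeR gave 0, 1 and 2 of the genes in these comparisons, and DESeq2 also called 0 at adjusted p under 0.05. ETV5 averaged 59.9 ± 4.77 CPM in CM+FB+MF, 59.0 ± 2.30 CPM in FB+MF and 60.1 ± 4.27 CPM in MF (SD, n = 3 each). DUSP6 averaged 213 ± 3.83, 216 ± 4.30 and 207 ± 6.60 CPM in the same groups.

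The other tested genes were not called between the digested groups either. SPRED1 averaged 168 ± 3.96 CPM in CM+FB+MF, 165 ± 4.50 CPM in FB+MF and 164 ± 6.05 CPM in MF, and SPRY2 averaged 19.3 ± 0.559, 22.4 ± 0.663 and 19.3 ± 0.898 CPM. The SPRY2 libraries of FB+MF lay above those of the other groups, and the DUSP4 and DUSP5 libraries of FB+MF below them, without overlap. Log2 differences of the tested genes lay between -0.11 and 0.28 for CM+FB+MF against MF, between -0.29 and 0.53 for FB+MF against MF, and between -0.24 and 0.34 for CM+FB+MF against FB+MF. Marker RNA of other cell types differed between these groups. Cardiomyocyte markers were at 247 to 447 CPM in CM+FB+MF, against 31.1 to 39.5 CPM in FB+MF and 30.6 to 44.9 CPM in MF. Fibroblast markers were at 993 to 3580 CPM in CM+FB+MF, 1121 to 1850 CPM in FB+MF and 274 to 298 CPM in MF. Macrophage markers differed less (15425 to 16520, 15593 to 16168 and 15744 to 16643 CPM), as did endothelial markers (383 to 437, 380.0 to 410.4 and 394 to 428 CPM), and smooth muscle markers were at 50.8 to 120.3, 62.6 to 70.0 and 14.4 to 14.9 CPM.

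Whether the differences between cultures depended on the setting was tested as an interaction, over all 18 macrophage libraries and the 14381 genes that passed the minimum. For CM+FB+MF against MF, 6 of the 10 genes had a difference that was higher in Biowire than in digested macrophages and 0 a lower one. Of all genes, 31.2% were called in either direction, 2068 higher and 2414 lower. ETV5 led among the genes with counts in every group, at a log2 difference of differences of 2.53 ± 0.17 (adjusted p = 5.27e-10), followed by SPRED1 at 2.04 ± 0.15 (adjusted p = 1.96e-09) and DUSP6 at 1.74 ± 0.15 (adjusted p = 1.86e-08). SPRY2 and SPRED2 were also called, at 1.60 ± 0.27 and 0.91 ± 0.17. The call of SPRY4 (adjusted p = 0.00858) sets a fit against a group at 0 counts, so its size is no measure of the difference.

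For FB+MF against MF, 3 of the 10 genes were called, all higher. Of all 14381 genes, 4.84% were called in either direction, 391 higher and 305 lower. They were ETV5 at 1.06 ± 0.16 (adjusted p = 0.000381), SPRED1 at 0.85 ± 0.15 (adjusted p = 0.00115) and SPRED2 at 0.68 ± 0.17 (adjusted p = 0.0242), a call that was lost with the replicate block and without Biowire FB+MF replicate 3 or digested FB+MF or MF replicate 2 or 3, with adjusted p up to 0.0925. For CM+FB+MF against FB+MF, 4 genes were called higher and 2 lower. Of all genes, 28.4% were called in either direction, 1905 higher and 2176 lower. The higher ones were SPRY2 at 2.30 ± 0.28, DUSP6 at 1.88 ± 0.15, ETV5 at 1.47 ± 0.16 and SPRED1 at 1.20 ± 0.15. The lower ones were SPRY1 at -2.37 ± 0.50 (adjusted p = 0.00131) and DUSP4 at -1.56 ± 0.57 (adjusted p = 0.0449), and the DUSP4 call was lost with library totals only, with the replicate number as a block and without any of 12 libraries (CM+FB+MF replicates 1 and 3 and FB+MF replicate 1 of the Biowires, and each of the 9 digested libraries).

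**Figure D3:**
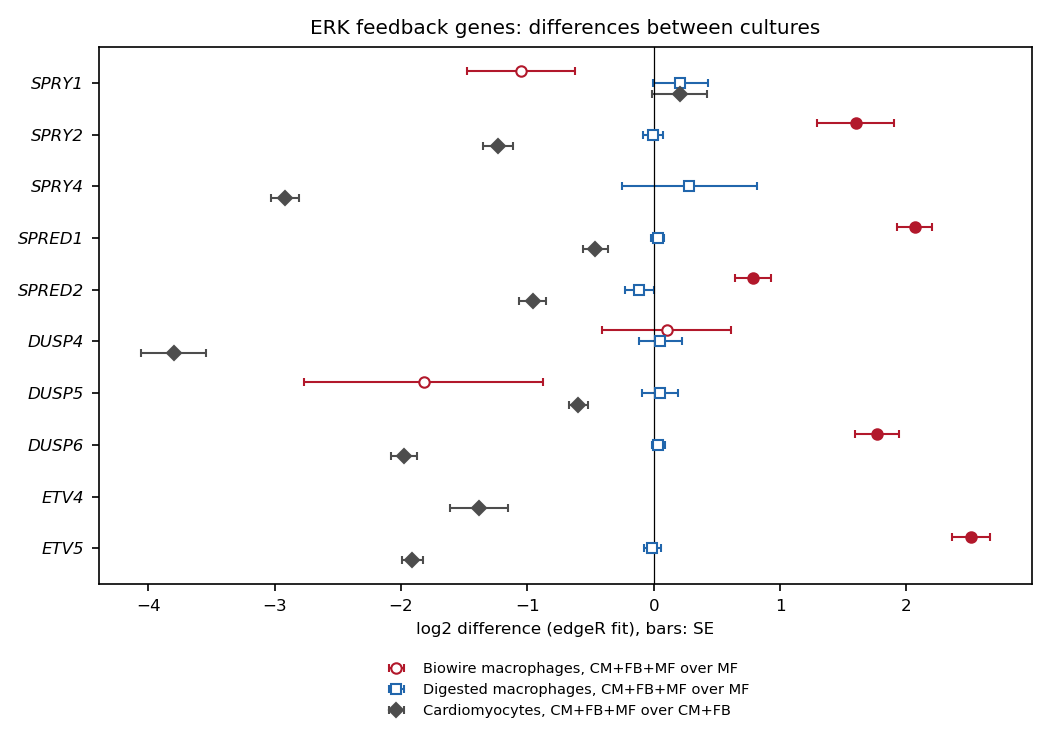
Log2 difference (edgeR fit, bars are SE) of each gene for CM+FB+MF over MF in Biowire macrophages (red circles) and digested macrophages (blue squares), and for CM+FB+MF over CM+FB in cardiomyocytes (grey diamonds). Filled macrophage symbols passed adjusted p under 0.05 and open ones did not, cardiomyocyte symbols carry no test, and a missing symbol marks a gene too low to be tested; ETV5 is at 2.51 in Biowire macrophages, -0.01 in digested macrophages and -1.91 in cardiomyocytes.

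Across all 8 groups the genes differed in where they were highest. These levels cross tables and were not tested. SPRY4 was highest in CM+FB cardiomyocytes (145 ± 16.3 CPM, SD, n = 4) and next in CM+FB+MF cardiomyocytes (19.4 ± 3.26 CPM), while each of the 6 macrophage groups averaged 1.68 CPM or less, with overlap between every neighbouring pair of them. ETV5 was highest in Biowire CM+FB+MF macrophages (213 ± 16.2 CPM, n = 3), then in CM+FB cardiomyocytes (94.7 ± 6.79 CPM) and Biowire FB+MF macrophages (74.0 ± 10.1 CPM). The FB+MF libraries overlapped with the digested groups that came next, and Biowire MF macrophages and CM+FB+MF cardiomyocytes were lowest without overlap.

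DUSP6 was highest in the 3 digested groups, whose libraries overlapped, and lay between 9.25 and 43.0 CPM in the 9 Biowire macrophage libraries. CM+FB cardiomyocytes (42.5 ± 4.37 CPM) overlapped with Biowire CM+FB+MF macrophages (41.3 ± 1.50 CPM), and Biowire MF macrophages, FB+MF macrophages and CM+FB+MF cardiomyocytes overlapped at the low end. SPRED1 was higher in every macrophage group than in cardiomyocytes, with Biowire CM+FB+MF macrophages on top (261 ± 25.5 CPM) and CM+FB+MF cardiomyocytes lowest (25.8 ± 3.56 CPM). DUSP4 was highest in CM+FB cardiomyocytes and Biowire FB+MF macrophages, which overlapped, and lowest in CM+FB+MF cardiomyocytes. By group means, cardiomyocytes of CM+FB+MF Biowires, sorted on day 3, were the lowest group for SPRED1, SPRED2, DUSP4, DUSP6 and ETV5. They ranked 2 from the top, behind CM+FB cardiomyocytes, for SPRY2 (23.1 CPM), SPRY4 (19.4 CPM), DUSP5 (38.2 CPM) and ETV4 (1.66 CPM), and 6 for SPRY1. The contrast that chose the genes enters these ranks. Macrophages of CM+FB+MF Biowires, sorted on day 14, were the highest group for SPRED1, SPRED2 and ETV5. For DUSP6 and SPRED2 the lowest group overlapped with its neighbour, as did the highest group of SPRED2. DUSP5 had its lowest group in the macrophages of CM+FB+MF Biowires (1.09 ± 0.606 CPM), which overlapped with the other Biowire macrophages.

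Other genes of the pathway were taken from 5 lists of 113 genes that hold none of the 10. The lists too were chosen with earlier results of these data known. In Biowire macrophages of CM+FB+MF against MF, 36 of 85 tested rose (42.4%) and 12 fell (14.1%), where 17.8% of all genes tested were called higher and 19.8% lower. Among receptor tyrosine kinases, 8 of 14 rose and 2 fell, with a median log2 difference of 1.59. They include MERTK, a receptor for the uptake of dying cells, at 318 ± 39.0 CPM in CM+FB+MF and 100.4 ± 4.40 CPM in MF macrophages (log2 1.65 ± 0.11, adjusted p = 1.03e-07), and the CSF1 receptor CSF1R, which is also in the macrophage marker list, at 1121 ± 120 CPM and 168 ± 68.1 CPM in these groups (log2 2.72 ± 0.25, adjusted p = 1.46e-06). FLT1, a VEGF receptor, averaged 19.4 ± 4.87 CPM in CM+FB+MF and 1.02 ± 0.716 CPM in MF (log2 4.19 ± 0.45). At the cardiomyocyte marker shares above and day 3 levels, cardiomyocyte RNA would carry 0.624 to 1.48 CPM of FLT1. It would carry 1.46 to 3.46 CPM of ERBB4, a neuregulin receptor that also rose, where 1.68 ± 0.323 CPM were measured in CM+FB+MF, and 5.93 to 14.1 CPM of ERBB2, its partner, where 19.8 ± 2.13 CPM were measured. The part of cardiomyocyte RNA in these rises was not tested.

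Of 14 tested growth factor ligands, 5 rose (35.7%) and 3 fell (21.4%), with a median log2 difference of 0.26. Over all genes tested, 17.8% were called higher and 19.8% lower. VEGFA averaged 80.3 ± 18.6 CPM in CM+FB+MF and 11.1 ± 3.48 CPM in MF macrophages (log2 2.86 ± 0.22, adjusted p = 3.09e-07). CSF1, the ligand of CSF1R, went the other way, at 13.4 ± 2.83 CPM in CM+FB+MF and 88.7 ± 10.8 CPM in MF (log2 -2.73 ± 0.23, adjusted p = 6.85e-07). IGF2 had 1345 counts over the CM+FB+MF libraries and 3 over the MF libraries, a ratio of 644 with an exact 95% counting interval of 219.8 to 3125 that covers counting error only. Cardiomyocyte RNA at the shares above and day 3 levels would carry 5.62 to 13.3 CPM of IGF2 and 3.13 to 7.43 CPM of VEGFA. For IGF2, 59.9 ± 0.397 CPM were measured in CM+FB+MF. The part of cardiomyocyte RNA in these values was not tested.

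In the cascade from adaptor to kinase, 6 of 23 tested genes rose (26.1%) and 3 fell (13%), shares near the 17.8% and 19.8% of all genes, with a median of 0.20. The adaptor GRB2 averaged 731 ± 48.9 CPM in CM+FB+MF and 274 ± 10.2 CPM in MF macrophages (log2 1.41 ± 0.097, adjusted p = 1.00e-07), and the scaffold KSR1 23.7 ± 6.03 CPM and 9.33 ± 2.85 CPM (log2 1.33 ± 0.24). RPS6KA2, a kinase that ERK activates, fell by 1.28 ± 0.13 on the log2 scale. Of 16 other brakes 6 rose (37.5%) and 2 fell (12.5%), with a median of 0.39. Those that rose include the ubiquitin ligase CBL (log2 1.13 ± 0.12) and the phosphatase PTPN6 (log2 1.05 ± 0.12). The stress-induced phosphatase DUSP1 rose too (log2 2.58 ± 0.39), and its CM+FB+MF level of 56.6 ± 39.6 CPM varied widely. Without CM+FB+MF replicate 1 the log2 difference of DUSP1 was 1.84.

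Of 18 other genes linked to ERK as targets, 11 rose (61.1%) and 2 fell (11.1%), where 17.8% and 19.8% of all genes did. The median was 1.08, beside a median of 0.00 for all genes. PHLDA1 averaged 83.4 ± 12.8 CPM in CM+FB+MF and 4.17 ± 0.634 CPM in MF macrophages (log2 4.33 ± 0.19, adjusted p = 2.27e-09). CCND1, which encodes cyclin D1, averaged 82.0 ± 1.31 CPM in CM+FB+MF and 10.8 ± 2.03 CPM in MF (log2 2.92 ± 0.19, adjusted p = 7.40e-08), and PLAUR, the urokinase receptor, 123 ± 4.08 CPM and 33.2 ± 7.02 CPM (log2 1.88 ± 0.16, adjusted p = 5.76e-07).

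In cardiomyocytes of CM+FB+MF against CM+FB, 10 of 108 tested pathway genes rose (9.26%) and 21 fell (19.4%), where 6.79% of all genes were called higher and 5.88% lower. Of the 20 target genes 1 rose and 8 fell, with a median log2 difference of -0.23 beside 0.02 for all genes. PHLDA1 averaged 75.0 ± 8.76 CPM in CM+FB+MF and 156 ± 8.13 CPM in CM+FB (log2 -1.08 ± 0.08, adjusted p = 1.43e-06), EPHA2 28.0 ± 2.45 CPM and 44.8 ± 3.84 CPM (log2 -0.69 ± 0.081, adjusted p = 7.29e-05), and ETV1, the third PEA3 factor, 110.5 ± 5.58 CPM and 151 ± 4.51 CPM (log2 -0.46 ± 0.054, adjusted p = 6.97e-05). These genes are known to respond to ERK like the 10, so they are not independent of the values that chose them.

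Among genes of the cascade itself in cardiomyocytes, 0 of 23 tested rose and 2 fell (8.7%, near the 5.88% of all genes): MAPK3, which encodes ERK1, by 0.29 ± 0.074 on the log2 scale (adjusted p = 0.0191) and RPS6KA1 by 0.44 ± 0.12 (adjusted p = 0.0345). The RPS6KA1 call was lost under the replicate block and without any of 7 libraries, that is each but CM+FB+MF replicate 4, and that of MAPK3 without CM+FB replicate 1 or 4 or CM+FB+MF replicate 3. Of 18 other brakes 0 rose and 3 fell, CBL by 0.41 ± 0.067, NF1, which encodes neurofibromin, by 0.27 ± 0.060, and DUSP7 by 0.38 ± 0.099 on the log2 scale, and the DUSP7 call was lost without CM+FB+MF replicate 2, 3 or 4 or CM+FB replicate 4. The medians of the 2 lists were -0.04 and -0.11.

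Ligands and receptors were called in both directions in cardiomyocytes. Of 27 ligands 7 rose (25.9%) and 4 fell (14.8%), with a median of 0.37. Of 20 receptors 2 rose (10%) and 4 fell (20%), with a median of -0.05. Over all genes, 6.79% were called higher and 5.88% lower. IGF2 averaged 629 ± 42.1 CPM in CM+FB+MF and 113 ± 9.23 CPM in CM+FB (log2 2.46 ± 0.075, adjusted p = 1.54e-09). The fibroblast growth factors FGF1 and FGF10 fell, FGF1 to 10.6 ± 1.30 CPM in CM+FB+MF against 27.7 ± 3.11 CPM in CM+FB (adjusted p = 2.71e-06) and FGF10 to 6.98 ± 1.11 CPM against 18.2 ± 2.17 CPM (adjusted p = 1.41e-05). The receptors FLT1, IGF1R and FGFR1 fell by 0.61 ± 0.073, 0.42 ± 0.055 and 0.42 ± 0.056 on the log2 scale, and CSF1R, a macrophage marker, averaged 3.39 ± 0.743 CPM in CM+FB+MF and 1.38 ± 0.353 CPM in CM+FB, in libraries that also differed in the summed macrophage markers given above.

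**Figure D4:**
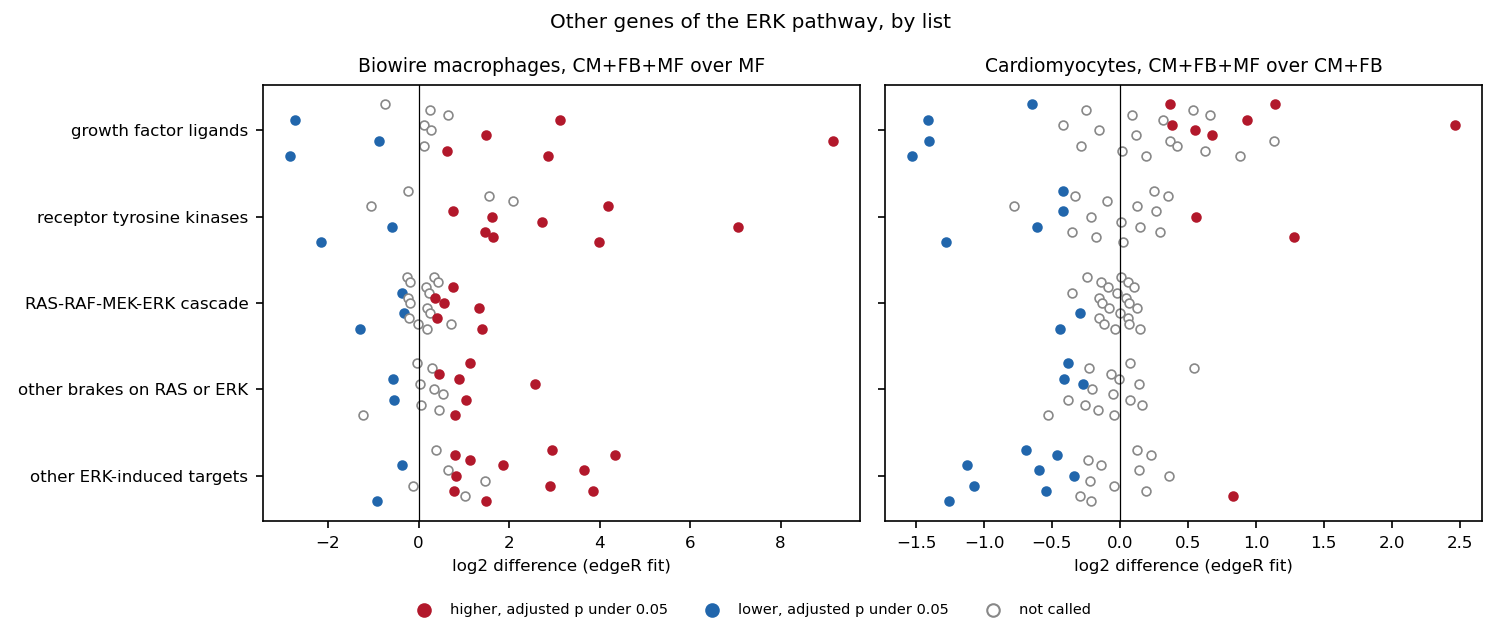
Log2 difference (edgeR fit) of each tested gene of 5 pathway lists for CM+FB+MF over MF in Biowire macrophages (left, 85 genes) and CM+FB+MF over CM+FB in cardiomyocytes (right, 108 genes), with different scales; red points passed adjusted p under 0.05 as higher, blue ones as lower, open ones did not pass, and the vertical spread only separates points. Of the other target genes, 11 of 18 are red on the left and 8 of 20 are blue on the right.

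Among 12083 genes, those with the group pattern most like 4 of the genes were found by the root mean square difference of group means of log2(CPM + 1) over the 8 groups, centred within each table. For SPRY4 they were DUSP6 (0.31), ETV5 (0.39) and MN1 (0.46). For DUSP6 they were SPRY2 (0.20), ETV5 (0.29) and FOSB (0.30), and for ETV5 they were FOS (0.24), FOSB (0.26) and NR4A1 (0.29). DUSP4 had other neighbours, GALNT14 (0.28), SLC6A6 (0.39) and TGFA (0.46). The choice depended on the scale: with a pseudocount of 10, 4 of these 12 pairs were kept, and over macrophage groups alone 0. Since SPRY4, DUSP4 and DUSP6 were picked for their cardiomyocyte values, which enter the measure, the closeness of these genes is a description and supports nothing.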

How the data were processed

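Total RNA of sorted cells was sequenced with a stranded kit, and the authors deposited raw counts of reads per gene in 3 tables. The submitters' processing notes name the genome build hg19, R 4.3.2, STAR 2.7.9a, DESeq2 and HTSeq 0.11.0; how strand was set in counting is not given there. Normalized tables from the same series were left aside. The digested columns and 3 of the cardiomyocyte columns were matched to their group by the table the labels name, and their replicate numbers are those in the column names.

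Counts were fitted per table, all groups together, with edgeR 4.0.16 in R 4.3.3 (TMM, filterByExpr, two-sided quasi-likelihood test, Benjamini-Hochberg adjustment over all genes, threshold 0.05), in 10 comparisons. Interactions used 1 fit of both macrophage tables. CPM are scaled by library totals. Marker sums were compared by exact permutation tests of log2(CPM + 1). The members and lists were chosen with earlier results of these data known. All 10 members are named, and per pathway list up to 3 genes with the smallest p past the threshold and at least 5 CPM, plus 3 genes of most similar pattern for SPRY4, DUSP4, DUSP6 and ETV5. CSF1R in cardiomyocytes and ERBB2 and ERBB4 in macrophages were named after their values were seen. The fit was tested on simulated data. No replicate pair was within counting noise (chi-square over its degrees of freedom 2.39 to 37.6). Other settings tried were RLE size factors, DESeq2 1.42.0, library totals only, no filter, only the groups compared, the replicate block, and each library left out.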

Additional observations from a re-analysis of the deposited data

Results flagged for a closer look

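Differences between cultures that were unlike in Biowire and digested macrophages were flagged by the interaction test. For CM+FB+MF against MF the log2 differences of differences were 2.53 for ETV5, 2.04 for SPRED1, 1.74 for DUSP6, 1.60 for SPRY2, 0.91 for SPRED2 and a fitted 6.74 for SPRY4, which rests on a group at 0 counts and is no bound. For FB+MF against MF they were 1.06 for ETV5, 0.85 for SPRED1 and 0.68 for SPRED2. For CM+FB+MF against FB+MF they were 2.30 for SPRY2, 1.88 for DUSP6, 1.47 for ETV5, 1.20 for SPRED1, -1.56 for DUSP4 and -2.37 for SPRY1. The 3 comparisons share libraries. The Biowire libraries carry a culture day and the digested ones do not, so setting and time cannot be told apart.

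DUSP4 in CM+FB cardiomyocytes had a library apart from the others, replicate 1 at 7.17 CPM, where the others were at 10.8 to 11.4 CPM. It was flagged by its gap to the nearest library as a share of the group's range. Such a rule flags about 1 in 20 groups by chance, and 20 were examined.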

How the results depend on the processing

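The count of members called stayed within 1.5 times in all 9 macrophage comparisons under every alternative run. In cardiomyocytes, 9 of 10 members were lower without overlap under each scaling, in the contrast that chose the genes. Leaving out a library cannot make such groups overlap, so it is no check of that count. With the replicate number as a block, the counts called were 5 for Biowire CM+FB+MF against MF, 4 for FB+MF against MF and 5 for CM+FB+MF against FB+MF. Replicate numbers were not taken as pairs, since same-number libraries correlated above 0.1 in only 3 of 9 Biowire, 2 of 9 digested and 1 of 4 cardiomyocyte pairs (r -0.04 to 0.25, -0.24 to 0.36 and -0.24 to 0.28). The block lost the DUSP4 and SPRED2 interactions and gained SPRY1 in FB+MF against MF (adjusted p = 0.038).

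Genes called in all moved most in the digested comparisons. CM+FB+MF against FB+MF had 31, but 49 with DESeq2, 53 without a filter and 19 to 72 with a library left out, FB+MF against MF had 207 (99 to 309), and Biowire FB+MF against MF had 860 (549 to 869 with a library left out, 1169 by DESeq2). Of the 12 pairs of similar pattern, 4 were kept with a pseudocount of 10 and 0 over macrophage groups only.

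Directions that turned were of values near 0 or of low counts, none of them called. With a library left out, DUSP4 ranged from -0.42 to 0.60 in Biowire CM+FB+MF against MF, -0.46 to 0.56 in its interaction and -0.019 to 0.14 in digested CM+FB+MF against MF. DUSP5 ranged from -0.70 to 0.44 in Biowire CM+FB+MF against FB+MF, -1.02 to 0.12 in its interaction, -2.01 to 0.20 in the FB+MF against MF interaction and -0.0077 to 0.14 in digested CM+FB+MF against MF. DUSP6 ranged from -0.25 to 0.012 in Biowire FB+MF against MF and -0.043 to 0.017 in digested CM+FB+MF against FB+MF. ETV5 ranged in digested macrophages from -0.022 to 0.059 (CM+FB+MF against FB+MF), -0.061 to 0.030 (CM+FB+MF against MF) and -0.080 to 0.0061 (FB+MF against MF). SPRY4 ranged from -0.90 to 0.17 and -0.38 to 0.69 in digested CM+FB+MF against FB+MF and MF, and from -0.52 to 4.27 in the FB+MF against MF interaction. In digested macrophages SPRED1 ranged from -0.021 to 0.010 (FB+MF against MF, 0.0065 with library totals only), SPRED2 from -0.065 to 0.048 and SPRY1 from -0.23 to 0.12 (CM+FB+MF against FB+MF), and SPRY2 from -0.030 to 0.028 (CM+FB+MF against MF).

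For marker sums (log2), cardiomyocyte markers in FB+MF against MF ranged from -0.70 to 0.034 in Biowire and -0.26 to 0.014 in digested macrophages (0.084 without the most abundant marker). Fibroblast markers in Biowire CM+FB+MF against MF turned to 0.74 without the most abundant marker, and in digested CM+FB+MF against FB+MF ranged from -0.22 to 0.70. Macrophage markers there ranged from -0.032 to 0.017. The causes were not tested. SPRY4 and ETV4 had at most 20 counts in any Biowire macrophage library, so differences of low level were not detectable there.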
